A study of Elaeis guineensis with 6 samples.

Results

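Complete defoliation was compared with no treatment in the early inflorescences of oil palm (Elaeis guineensis), those at leaf axils -27 and -20. The comparison used 4 of the 6 libraries of the series. In the stress group, all leaves of 1 tree were removed except the unopened central one, the tree was felled 45 days later, and 1 library was made from the inflorescence at leaf axil -27 and 1 from that at -20. In the control group, 1 untreated tree felled at the same time gave a library from each of the same leaf axils. The 2 libraries at leaf axil +5 were left out of the test and are used only to describe the genes it called. Each treatment had 1 tree, so an effect of defoliation cannot be told apart from a difference between the palms, and every p-value below measures only the spread between 2 leaf axils of a tree.

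Oil palm bears an inflorescence in the axil of each leaf, and a palm produces separate male and female inflorescences in alternating cycles. Leaves with a negative number are still enclosed in the bud, so the inflorescences in their axils are young, and stripping a palm of its leaves has long been used to induce male inflorescences. Early inflorescences are rich in meristem, in which KNOX homeodomain proteins keep cells undifferentiated, while MADS-box proteins give floral meristems and organs their identity. Auxin acts in the same tissue through Aux/IAA repressors.

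Expression was deposited as FPKM, the fragments of a gene per kilobase of its length scaled by the mapped fragments of the library. Of 32099 records, 18759 (58.4%) reached 1 FPKM in 2 or more of the 4 early libraries and were tested on the log2(FPKM + 1) scale, which understates the change of low genes. In these libraries FPKM summed to 253872 to 259362, and 17857 to 18402 records reached an FPKM of 1. FPKM carries no read totals, so depth was estimated from the most common ratio between libraries among low values. Relative to control -27 it was 1.19 for stress -27, 1.03 for stress -20 and 1.01 for control -20. The read numbers that the paper lists put these libraries in the same order. The tissue label was checked against inflorescence and leaf genes. KNOX1 ranked 16 of 18759 by mean FPKM. Only 3 of 10 floral MADS-box genes passed the filter, a smaller share than the 58.4% of all records. Of the inflorescence genes checked, KNOX1 alone stood high. The leaf genes checked were the plastid-encoded ones for photosystem proteins and the large Rubisco subunit. Of their 21 records, 9 were at 0 in all 4 early libraries and 3 reached 1 FPKM in any of them (psaI, psaJ and psbT), with a highest value of 2.57 FPKM for psaI in stress -27. A poly(A) selection, if used, would largely remove plastid RNA, so these low values cannot show that leaf tissue was absent. Nuclear leaf genes were not checked, since no identifier was paired with such a name.

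The early inflorescences of the defoliated tree differed from those of the control tree at many genes, more of them lower than higher. A record was called at a Benjamini-Hochberg adjusted p under 0.01 from limma and a difference of at least 2-fold. Of the 18759 records tested, 696 were called (3.71%), 205 higher (1.09%) and 491 lower under stress (2.62%). Among those higher, 28 differed at least 4-fold and 6 at least 8-fold, and among those lower, 109 differed at least 4-fold and 29 at least 8-fold. At an adjusted p under 0.05 there were 1066 records with a 2-fold difference (5.68%), 356 higher (1.9%) and 710 lower (3.78%). In bulk tissue, fewer cells of a type and less RNA per cell cannot be told apart. Under an exact permutation test, 2 libraries against 2 cannot give a two-sided p below 0.333, so the calls rest on limma, which borrows the spread from all records.

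The count depended on single libraries. Without control -27 or without control -20 only 2 records remained called, LOC105037616 and LOC105047312 each time, and without stress -27 or stress -20 there were 258 and 199. Whichever library was left out, 367 of the 696 records, 106 higher and 261 lower, kept a 2-fold difference in the same direction at an adjusted p under 0.05.

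Fewer records were apart between the leaf axils of a tree than between the trees. Leaf axils -27 and -20 were at least 2-fold apart at 174 records (0.928%) in the defoliated tree and at 175 records (0.933%) in the control tree. Stress and control were at least 2-fold apart at 1334 records (7.11%) at leaf axil -27 and at 1456 records (7.76%) at -20. With no test, since each leaf axil had 1 library per treatment, 733 records (3.91%) differed 2-fold or more in the same direction at both leaf axils, 227 of them higher (1.21%) and 506 lower under stress (2.7%). Of these, 173 and 429 were also called. The other 131 differed 2-fold at both leaf axils but did not reach an adjusted p under 0.01 from limma, DRM below among them.

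**Figure D1:**
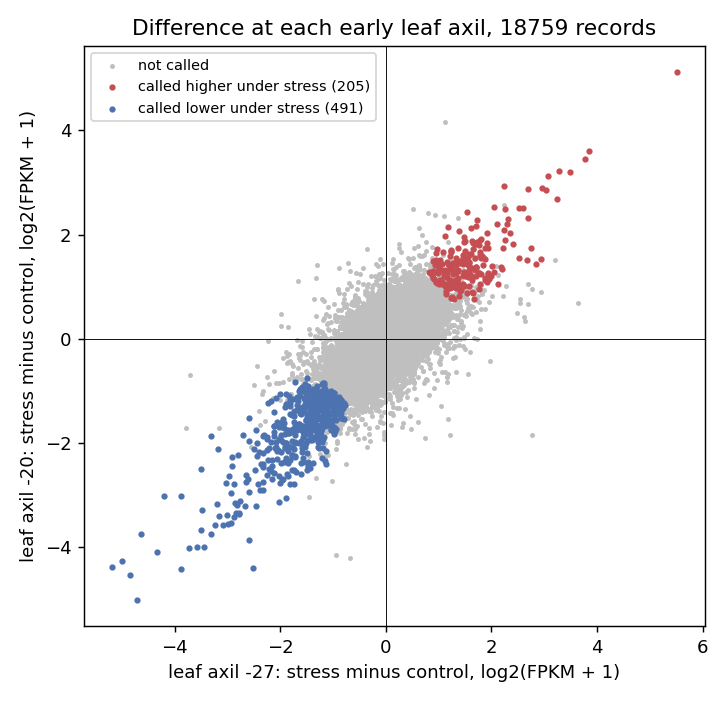
Stress minus control in log2(FPKM + 1) units, for leaf axil -27 on the x axis and leaf axil -20 on the y axis, 1 point for each of 18759 records. The 205 records called higher lie at the upper right and the 491 called lower at the lower left. The calls were made from these same values, so the shared direction at both leaf axils is not separate support.

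The largest rise was that of LOC105037616, a protein-coding gene. Its FPKM was 51.2 at -27 and 61.9 at -20 under stress, against 0.146 and 0.818 in control (log2 difference 5.31, standard error 0.23, limma adjusted p = 0.000112). Both stress values stood far above both control values, yet at leaf axil +5 the gene was nearly silent in both trees, at 0.135 FPKM under stress and 0 in control. LOC105047203 showed the same pattern. It had 15.7 and 12.3 FPKM under stress against 0.218 and 0.213 in control (log2 difference 3.62, standard error 0.18, limma adjusted p = 0.000169), and 0.193 under stress at +5 against 0 in control. These 2 rises were therefore measured in the early inflorescences and not at +5.

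LOC105035502 and LOC105050876 were higher under stress at every leaf axil. LOC105035502 had 25.0 and 32.3 FPKM under stress against 1.301 and 2.640 in control (log2 difference 3.35, standard error 0.24, limma adjusted p = 0.000496). At +5 it had 18.3 FPKM under stress against 0.194 in control. LOC105050876 had 48.8 and 45.1 FPKM under stress against 5.44 and 5.23 in control (log2 difference 2.92, standard error 0.12, limma adjusted p = 9.7e-05). It was the only one of the 10 largest rises with over 3 FPKM in both early control libraries. LOC105047040 had 9.58 and 8.06 FPKM under stress against 0.122 and 0.418 in control, and the long noncoding RNA LOC105034156 had 7.25 and 6.72 FPKM under stress against 0 and 0.0635 in control. The groups did not overlap for any of these genes, which follows from their choice as the largest called rises. Of all tested records, 27.5% had both stress values above both control values. The files pair none of these identifiers with a gene name.

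Some records were listed at 0 in both early libraries of a tree and at 5 FPKM or more in both of the other. An exact 0 in an FPKM table can also be a failed estimate, and no fold is given against it. LOC105035905, annotated as a pseudogene, had 13.4 and 11.1 FPKM under stress and was listed at 0 in both control libraries. LOC105058072 had 8.74 and 8.27 FPKM under stress, and LOC105034362, another pseudogene, had 5.51 and 6.35, both against 0 in control. These 3 were listed at 0 in the control library at +5 too, with 18.5, 4.95 and 12.0 FPKM under stress there. In the other direction, LOC105058122 was listed at 0 in both stress libraries against 12.2 and 15.1 FPKM in control. The noncoding LOC105033102 was at 0 under stress against 8.22 and 8.03 in control, LOC105033795 at 0 against 5.87 and 9.10, and LOC105061441 at 0 against 6.21 and 7.86. Of these 4, only LOC105061441 had a value above 0 under stress at +5, 0.258 FPKM against 15.6 in control. All 7 were called, and a record silent in all libraries of 1 tree cannot be told apart from a difference between the genomes of the 2 trees.

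The largest fall was that of LOC105047312. Its FPKM was 4.77 and 3.87 under stress at -27 and -20, against 150 and 156 in control (log2 difference -4.86, standard error 0.12, limma adjusted p = 2.31e-05). The values within a tree lay close together and those of the 2 trees far apart. At +5 it had 1.12 FPKM under stress against 18.5 in control. LOC105058610 had 0.362 and 1.74 FPKM under stress against 48.3 and 56.1 in control (log2 difference -4.78, standard error 0.30, limma adjusted p = 0.000358). The pseudogene LOC105032414 had 0.206 and 0.430 FPKM under stress against 33.6 and 32.1 in control (log2 difference -4.69, standard error 0.16, limma adjusted p = 6.1e-05). Each of these 3 was low in both stress libraries and high in both control libraries.

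LOC105042868 and LOC105050255 were early genes whose level in the control tree was itself low at +5. LOC105042868 had 0.104 and 0.127 FPKM under stress against 34.3 and 20.5 in control (log2 difference -4.63, standard error 0.24, limma adjusted p = 0.000169), and 0 under stress at +5 against 0.822 in control. LOC105050255 had 2.095 and 2.637 FPKM under stress against 75.9 and 47.7 in control (log2 difference -4.19, standard error 0.22, limma adjusted p = 0.000169), and 1.05 under stress at +5 against 3.0 in control. LOC105057259 differed from them in that its control level was highest at +5. It had 1.55, 1.27 and 0.326 FPKM under stress at -27, -20 and +5, against 36.4, 47.8 and 99.1 in control. The other large falls were the noncoding LOC105055440, with 0.671 and 0.771 FPKM under stress against 32.5 and 29.3 in control, LOC105048963, with 7.005 and 4.856 against 94.2 and 92.0, and LOC105052161, with 4.78 and 2.65 against 62.1 and 57.2.

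**Figure D2:**
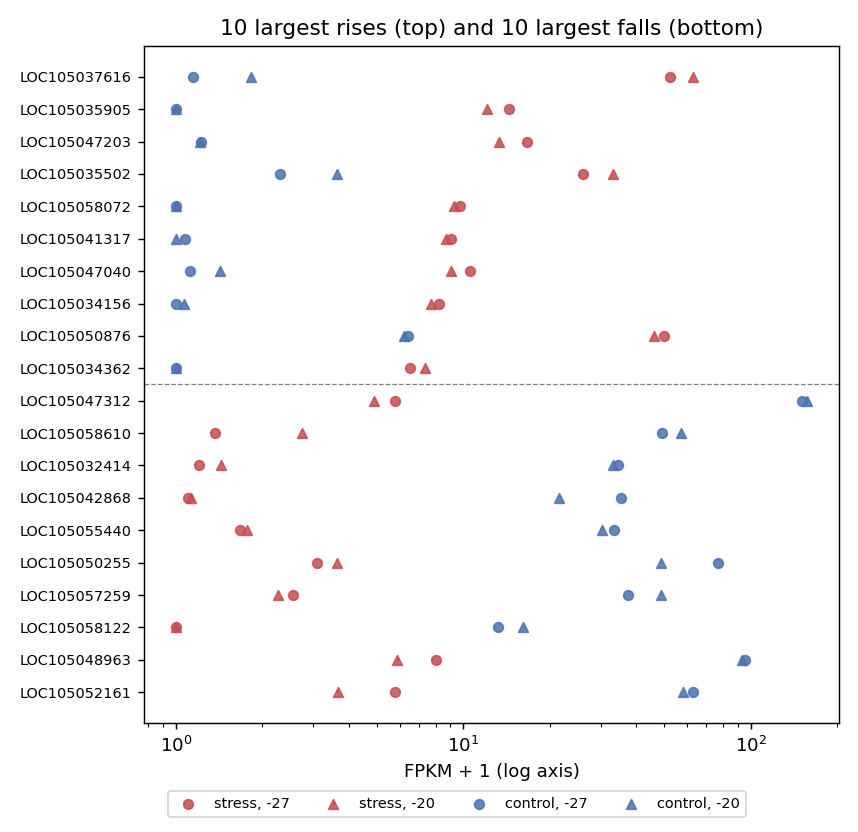
FPKM + 1 on a log axis in each early library for the 10 called records with the largest rise (above the dashed line) and the 10 with the largest fall (below it). Circles are leaf axil -27 and triangles leaf axil -20, red is stress and blue is control. No record has a stress value between its control values, and LOC105037616 and LOC105047312 have the widest gaps.

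Among the records tested, 44 nuclear ones carried a gene name in the table or in RefSeq. Of these, 1 was called higher and 5 lower (13.6%, against 3.71% of all tested records), and 3 were higher and 6 lower at an adjusted p under 0.05 with a 2-fold difference. The 6 genes called were ARP, FB1, CaRP2B, IAA1, Eg-ProT1 and TCTP. For none of the gene groups below was more than 1 member called. At an unadjusted p under 0.05 from limma, 11 of their 24 tested members differed, 6 higher (25.0%) and 5 lower (20.8%). Of all tested records, 2678 were higher (14.3%) and 3740 lower (19.9%) by the same rule.

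Of the hormone signalling genes, IAA1 was lower under stress and the other 2 were not called. IAA1, an Aux/IAA repressor of auxin-responsive transcription, had 52.4 and 55.4 FPKM under stress against 136 and 129 in control (log2 difference -1.28, standard error 0.11, limma adjusted p = 0.00104). The groups were well apart, and at +5 the gene had 62.0 FPKM under stress against 90.1 in control. AHP1, a histidine phosphotransfer protein of the cytokinin relay, had 19.9 and 21.3 FPKM under stress against 18.0 and 16.0 in control (log2 difference 0.27, standard error 0.12, limma adjusted p = 0.168). GSK, a kinase of the glycogen synthase kinase 3 family, to which the brassinosteroid signalling kinases belong, had 83.7 and 82.6 FPKM under stress against 66.8 and 71.2 in control (log2 difference 0.27, standard error 0.11, limma adjusted p = 0.13).

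Most of the floral identity genes were silent or nearly so at these leaf axils. GLO1 and SQUA1, with mean FPKM of 6.44 and 6.23, lay near the median of 6.11 for tested protein-coding records. Of 10 MADS-box genes, 7 failed the filter: AG2, MADS2 and LOC105042148 (AGL2-2) were at 0 in all 4 libraries, as were AGL2-3 and AGL6-1, while DEF1 and LOC105057174 (AGL2-5) reached at most 0.164 and 0.252 FPKM. None of the 3 tested was called. GLO2, a B-class gene of the GLOBOSA type that acts in petal and stamen identity, had 2.15 and 0.844 FPKM under stress against 3.61 and 4.86 in control (log2 difference -1.11, standard error 0.28, limma adjusted p = 0.0366), below the control at both leaf axils. Its relative GLO1 (LOC105037274) had 4.59 and 6.31 FPKM under stress against 6.84 and 8.01 in control (log2 difference -0.39, standard error 0.18, limma adjusted p = 0.17). SQUA1, related to the floral meristem gene SQUAMOSA of snapdragon, had 4.10 and 8.43 FPKM under stress against 5.59 and 6.78 in control, with overlapping groups. At +5 the same gene had 150 FPKM under stress against 124 in control.

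The meristem gene KNOX1 was among the most abundant transcripts of the early inflorescence. It had 961 and 914 FPKM under stress against 847 and 480 in control (log2 difference 0.55, standard error 0.27, limma adjusted p = 0.19). The stress values lay above both control values, but the control leaf axils themselves were far apart. LOC105039637 (BBM, an AP2-type transcription factor known from embryos) had 1.54 and 1.98 FPKM under stress against 1.10 and 0.591 in control (log2 difference 0.59, standard error 0.22, limma adjusted p = 0.11).

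DRM had the largest difference of the named genes that rose in value, but it also varied most between leaf axils. Its FPKM was 39.1 at -27 and 123 at -20 under stress, against 7.53 and 20.1 in control (log2 difference 2.40, standard error 0.56, limma adjusted p = 0.0291). At each leaf axil the stress value was at least 5 times the control value, and in both trees the value at -20 was the higher one. The main fit had no leaf axil term, and with one added DRM was called. At +5 it had 1048 FPKM under stress against 48.4 in control. LOC105061558 (ARP) was called, with 388 and 456 FPKM under stress against 133 and 198 in control (log2 difference 1.37, standard error 0.20, limma adjusted p = 0.00672), and 460 under stress at +5 against 140 in control. The call of ARP ended under quantile normalization (limma adjusted p = 0.0106) and with no filter on low records (limma adjusted p = 0.0315). It also ended without the variance trend of limma. LOC105044652 (SAG, a name given to senescence-associated genes) had 51.1 and 30.1 FPKM under stress against 17.00 and 17.28 in control (log2 difference 1.15, standard error 0.22, limma adjusted p = 0.0159). SAG too was called once the leaf axil term was added.

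None of the 3 antioxidant genes was called. LOC105054906 (CAT2, a catalase, which breaks down hydrogen peroxide) had 14.9 and 26.7 FPKM under stress against 4.08 and 11.0 in control (log2 difference 1.42, standard error 0.41, limma adjusted p = 0.0515). Its stress values lay above its control values, with more at -20 than at -27 in both trees. With a leaf axil term added to the fit, CAT2 was called. LOC105044809 (MnSOD, the mitochondrial superoxide dismutase) had 17.5 and 14.9 FPKM under stress against 20.3 and 23.1 in control (log2 difference -0.40, standard error 0.13, limma adjusted p = 0.0753). GST, a glutathione S-transferase, had 20.4 and 21.3 FPKM under stress against 27.4 and 14.7 in control, with overlapping groups.

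Of 3 genes of fatty acid and lipid synthesis, none reached a 2-fold difference. LOC105048931 (SACPD, stearoyl-ACP desaturase, which makes oleate) had 167 and 158 FPKM under stress against 93.4 and 96.4 in control. Its adjusted p passed 0.01 without a 2-fold difference (log2 difference 0.77, standard error 0.11, limma adjusted p = 0.0064). PTE, the acyl-ACP thioesterase FATB1 that releases palmitate, had 10.3 and 10.8 FPKM under stress against 5.37 and 7.09 in control (log2 difference 0.69, standard error 0.16, limma adjusted p = 0.0279). GPAT, a glycerol-3-phosphate acyltransferase, had 4.63 and 6.51 FPKM under stress against 7.22 and 9.62 in control (log2 difference -0.52, standard error 0.20, limma adjusted p = 0.114).

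Of the 3 DNA methyltransferases none was called, and their log2 differences were small. The log2 difference was -0.37 for LOC105055950 (EgMET1, which maintains CG methylation), with a standard error of 0.20. It was -0.45 for LOC105056476 (EgCMT1, a chromomethylase), with a standard error of 0.19. LOC105032137 (EgDRM1, a domains-rearranged methyltransferase) had 17.7 and 18.7 FPKM under stress against 17.6 and 19.5 in control, a log2 difference of -0.03 with a standard error of 0.12, so its groups overlapped.

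Among transport genes, LOC105032589 (Eg-ProT1, a proline transporter) was lower under stress, with 17.1 and 16.1 FPKM against 39.2 and 32.4 in control (log2 difference -1.06, standard error 0.13, limma adjusted p = 0.00355). This call ended with each library centred on its median (log2 difference -0.994). It also ended with no filter on low records (limma adjusted p = 0.0165) and without the variance trend of limma. The aquaporin LOC105042909 (AQP) had 136 and 152 FPKM under stress against 122 and 119 in control (limma adjusted p = 0.179). Of 4 genes of translation, EF1, EF1B, RPL21 and RPL27, none was called, and their median log2 difference was -0.11. Actin (LOC105038005, ACT1), often used as a reference gene, had 357 and 500 FPKM under stress against 245 and 273 in control (log2 difference 0.71, standard error 0.19, limma adjusted p = 0.0404).

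The most abundant records called were TCTP, LOC105061558 (ARP, above) and LOC105044935. TCTP, the translationally controlled tumour protein, an abundant growth-related protein, had 521 and 563 FPKM under stress against 1175 and 1016 in control (log2 difference -1.01, standard error 0.17, limma adjusted p = 0.00961), only just past both thresholds, and the call ended with a pseudocount of 0.1 (limma adjusted p = 0.0113) and with centring on medians (log2 difference -0.946). LOC105044935 had 142 and 141 FPKM under stress against 290 and 334 in control (log2 difference -1.13, standard error 0.13, limma adjusted p = 0.00285). With no filter on low records neither TCTP nor LOC105044935 kept its call (limma adjusted p = 0.0526 and 0.0170). Of the 255 records with a mean FPKM of at least 100, 1.18% were called higher and 4.71% lower, against 1.00% and 2.40% of the 8474 records with a mean below 5.

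LOC105032735 (FB1) had the largest difference of all named records. It had 0.661 and 0.825 FPKM under stress against 17.4 and 16.8 in control (log2 difference -3.38, standard error 0.15, limma adjusted p = 0.000112), and 3.33 under stress at +5 against 40.0 in control. LOC105038220 (CaRP2B) had 24.7 and 17.9 FPKM under stress against 55.9 and 52.3 in control (log2 difference -1.32, standard error 0.16, limma adjusted p = 0.00323). The call of CaRP2B ended with no filter on low records (limma adjusted p = 0.0184) and without the variance trend of limma. Both genes were lower under stress at every leaf axil. The other 14 named records were not called at either threshold, and their log2 differences ran between -0.70 (LOC105058997, M39A) and 0.80 (LOC105044578, EMZ08). Among them was one of the most abundant transcripts, LOC105058161 (GRP, a glycine-rich protein), with 1752 and 2031 FPKM under stress against 1165 and 1224 in control (log2 difference 0.66, standard error 0.19, limma adjusted p = 0.0551).

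**Figure D3:**
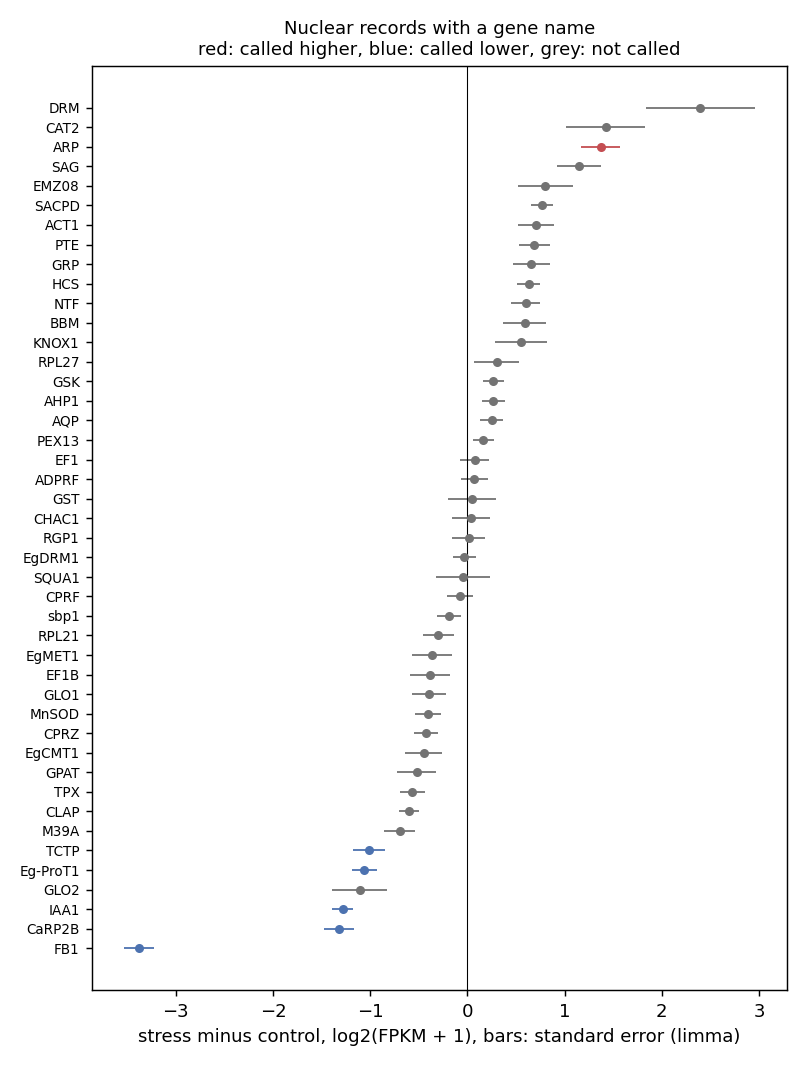
Difference between stress and control at leaf axils -27 and -20 on the log2(FPKM + 1) scale for the 44 nuclear records with a gene name, with the limma standard error as the bar. Blue points are the 5 called lower, the red point is ARP, called higher, and grey points were not called, among them DRM at 2.40 with the widest bar.

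Records of the plastid genome were mostly lower under stress, though none was called. Of 138 such records 25 passed the filter, and 21 of these had a log2 difference below 0, against 55.0% of all tested records. For 19 of the 25 both stress values lay below both control values, against 35.4% of all tested records. The median log2 difference was -0.67, against -0.05 over all tested records, and 4 of the 25 were lower at an adjusted p under 0.05 with a 2-fold difference, against 3.78% of all tested records. At an unadjusted p under 0.05 from limma 14 were lower and 1 was higher, against 19.9% and 14.3% of all tested records. The ribosomal protein gene rpl16 had 8.54 and 8.08 FPKM under stress against 17.8 and 16.8 in control (log2 difference -0.98, standard error 0.12, limma adjusted p = 0.00379), and rpl14, another, had 5.98 and 7.22 against 13.6 and 11.8. The translation initiation factor gene infA had 0 and 1.96 FPKM under stress against 4.30 and 6.73 in control. The 25 records hold 20 distinct identifiers, so every count above includes repeats. Genes of the inverted repeat, rrn4.5, rrn16, rrn23, rps19 and rpl2, have 2 records each that share reads, and they are not independent. The 4 records lower at an adjusted p under 0.05 with a 2-fold difference were infA, both of rrn23 and 1 of rrn4.5. Plastid records held 0.0394% and 0.0478% of the summed FPKM under stress against 0.0802% and 0.0696% in control, while at +5 they held 0.0659% under stress against 0.0553% in control. This set was chosen after its values were seen.

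**Figure D4:**
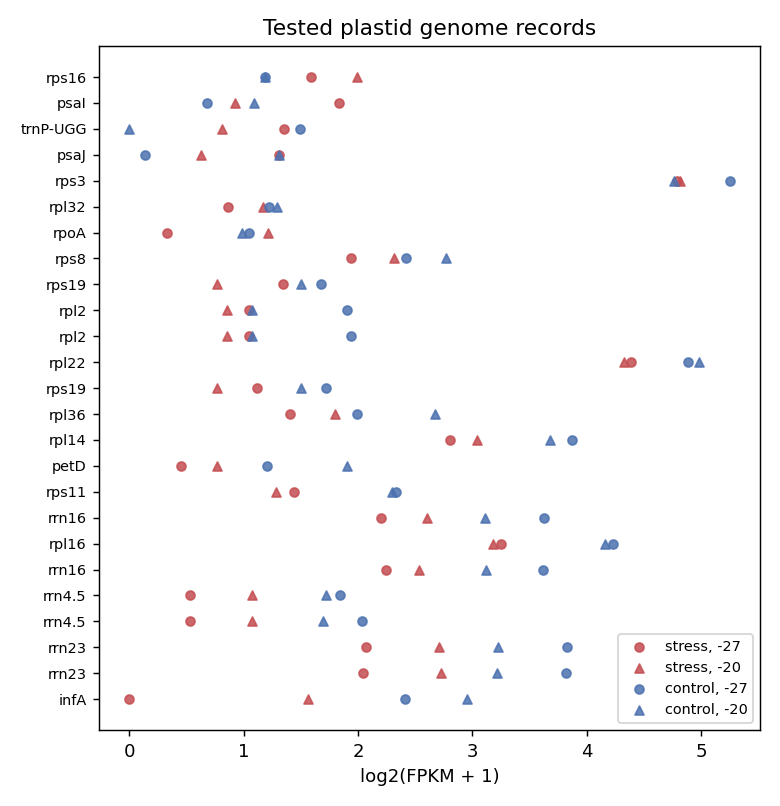
Level on the log2(FPKM + 1) scale of each of the 25 tested plastid genome records in the 4 early libraries, ordered by the difference between stress (red) and control (blue), with circles for leaf axil -27 and triangles for -20. For 19 records both red points lie left of both blue points.

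The classes of structural RNA, which a poly(A) selection would largely remove, as it would plastid RNA, also differed between the early libraries. Records annotated as ribosomal RNA, the plastid ones included, held 0.0733% and 0.133% of the summed FPKM under stress against 0.171% and 0.183% in control. Those of snoRNA held 0.0987% and 0.103% under stress against 0.155% and 0.146% in control, and those of snRNA 0.00585% and 0.0062% against 0.0297% and 0.0144%. In these 3 classes both stress shares lay below both control shares, while those of tRNA overlapped, and at +5 the shares of the 3 classes were higher under stress. These shares moved with the treatment in the early libraries, and their part in the plastid differences was not tested. The single records called in these 3 classes were all lower under stress. Of 15 tested ribosomal RNA records, all were below 0 (median -0.98) and none was called, and limma gave 10 lower and 0 higher at an unadjusted p under 0.05. These 15 include plastid records already counted in the plastid set. Of 104 snoRNA records, 74 were below 0 (median -0.49, against 55.0% of all tested records below 0). Of these 104, 6 were called lower (5.77%) and 0 higher, and 39 were lower and 8 higher at an unadjusted p under 0.05. Of 11 snRNA records, 7 were below 0 (median -1.60), and 3 were called lower (27.3%) and 0 higher. At an unadjusted p under 0.05 from limma, 6 of them were lower and 1 higher. Over all tested records, 2.62% were called lower and 1.09% higher, and 19.9% were lower and 14.3% higher at an unadjusted p under 0.05 from limma. Among long noncoding RNAs 10.7% of 468 records were called, and among pseudogenes 6.70% of 388, against 3.23% of 16465 protein-coding records. The median of the mean FPKM was 2.64, 2.60 and 6.11 in these 3 classes, so the classes differed in level as well. Of all records with a mean FPKM below 5, 1.00% were called higher and 2.40% lower. From 5 to 20 FPKM the shares were 0.99% and 2.59%. Whether level bears on the shares of the classes was not tested.

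The genes called in the early inflorescences mostly kept their direction at leaf axil +5, in libraries the test did not use but which came from the same 2 trees. Of the 205 records called higher, 183 (89.3%) were also higher under stress at +5, and of the 491 called lower, 443 (90.2%) were also lower. Over all tested records 66.1% had the same sign at +5 as at the early leaf axils. At +5, 59.0% of the records called higher were at least 2-fold higher, against 5.85% of all tested records, and 60.5% of those called lower were at least 2-fold lower, against 10.1%. The median log2 difference at +5 was 1.14 for the records called higher and -1.26 for those called lower, against 1.43 and -1.47 at the early leaf axils. Of the called records, 5 higher and 10 lower ones were at least 2-fold apart in the opposite direction at +5, and 9 and 30 had under 1 FPKM in both +5 libraries.

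**Figure D5:**
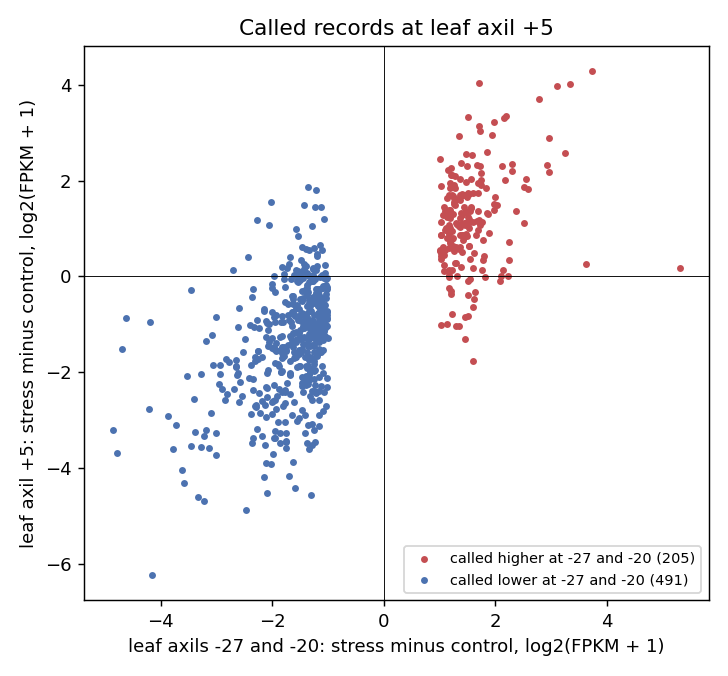
Difference between stress and control on the log2(FPKM + 1) scale at leaf axils -27 and -20 (x axis) and at leaf axil +5 (y axis) for the 205 records called higher (red) and the 491 called lower (blue). Most points keep their sign, and the red point farthest to the right, LOC105037616, lies near 0 at +5.

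Some of the called records were neighbours. The order of genes was taken from a newer assembly, EG11, and records counted as neighbours where no other tested record lay between them. Of the 175 records called higher with a position, 14 (8.0%) had a neighbour that was also called higher, and of the 447 called lower, 36 (8.05%) had a neighbour also called lower, where 1.97% and 5.00% of all 17543 tested records with a position had such a neighbour. There were 6 neighbouring pairs called in opposite directions. The 4 runs of 3 neighbours called in the same direction are named here after their values were seen. LOC105041317, LOC105035906 and LOC105035905 formed a run higher under stress. In the 2 early stress libraries they had 8.08 and 7.72, 2.12 and 2.69, and 13.4 and 11.1 FPKM, against at most 0.0759 FPKM in control. LOC105051814, LOC105051815 and LOC105051816 formed a run lower under stress, with 4.16 and 2.33, 1.48 and 1.21, and 2.95 and 2.31 FPKM against 38.2 and 37.6, 9.57 and 8.51, and 20.8 and 18.0 FPKM in control. The other runs were LOC105060715, LOC105060716 and LOC105032529, higher under stress, and LOC105036450, LOC105036482 and LOC105036491, lower under stress. Neighbouring paralogs can share reads, which was not tested.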

How the data were processed

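Total RNA of inflorescences was sequenced on an Illumina HiSeq instrument. Per the labels and the study's methods, the authors aligned untrimmed reads with HISAT2 2.1.0 to an earlier oil palm assembly, quantified genes with StringTie 1.3.4 and deposited FPKM values, with 1 column per library and no filter on low values. The study tested read counts with DESeq2 1.18.1, but counts were not used here.

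Groups came from the sample titles. Log2(FPKM + 1) of 18759 records that reached 1 FPKM in 2 or more of the 4 early libraries was tested with limma 3.58.1 in R 4.3.3 (lmFit, eBayes with a mean-variance trend), without a leaf axil term, with Benjamini-Hochberg adjustment over all tested records. The test was tested on simulated data. Other steps used Python 3.11.15, pandas 2.3.3 and scipy 1.17.1. Names, classes and gene order came from a RefSeq table of EG11, which held 93.9% of the tested records and no product names or sequences.

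Named records were the 10 largest rises and falls among calls, all tested records with a gene name, records at 0 in 1 tree and at 5 FPKM or more in the other, and the 3 most abundant calls. Plastid records are given as a group, and 3 tRNA records were left out. Members and lists were chosen with earlier results of these data known. Alternatives were another pseudocount, other filters, quantile normalization, centring on medians, no variance trend, a leaf axil block, no repeated identifiers and leaving out each library.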

Additional observations from a re-analysis of the deposited data

Results flagged for a closer look

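For 2 genes flagged here, the treatment difference ran in opposite directions at the early leaf axils and at +5. They were not the only ones. Among the uncalled named records, LOC105044578 (EMZ08) had log2 differences of 0.80 early and -0.92 at +5. LOC105039637 (BBM) had 0.59 and -0.83. There was 1 library per treatment at +5, so the contrast between leaf axils was not tested. LOC105044652 (SAG), not called, had higher values under stress at both early leaf axils and a lower one at +5, with 18.5 FPKM under stress against 33.9 in control there (log2 difference -0.84). LOC105032589 (Eg-ProT1) was lower under stress at both early leaf axils and higher at +5, with 53.0 FPKM under stress against 44.9 in control (log2 difference 0.24).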

How the results depend on the processing

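The main limit is 1 tree per treatment with 2 leaf axils each. Against 696 called records (205 higher, 491 lower), leaving out 1 library gave 2 to 258 (1 to 58 higher, 1 to 205 lower), and against 1066 records at an adjusted p under 0.05, 497 to 1189. Without either control library, limma still gave 4601 and 4705 records at an unadjusted p under 0.05. With no filter 153 records were called (40 higher, 113 lower), all among the 696. With a mean FPKM of at least 5 there were 431 (127 higher, 304 lower), of which 408 were among the 696, 524 at an adjusted p under 0.05, and 110 higher and 255 lower 2-fold at both leaf axils, with 10285 records tested. A pseudocount of 0.1 gave 428 higher and 847 lower 2-fold at both leaf axils. The cause of the smaller number with no filter was not tested. Quantile normalization called 657 records and centring on medians 658, 37.4% and 37.7% of them higher, against 29.5%.

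With a replicate block for the leaf axil, 852 records were called, 688 of them among the 696. The difference between leaf axils -27 and -20 was hardly shared by the 2 trees (r = 0.01 across 18759 records, which are not independent), so the block and the pairing rest on the label alone.

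Of 30 named records that were called, 28 lost the call without either control library, 4 or 5 without a stress library, 5 with no filter (Eg-ProT1, CaRP2B, ARP, TCTP and LOC105044935), 4 without the variance trend (the same without LOC105044935), and at most 2 under the pseudocount (TCTP), quantile normalization (ARP) or centring (Eg-ProT1 and TCTP). None lost it under the block, and none changed direction under any alternative. The block added calls for DRM (limma adjusted p = 9e-05), CAT2 (0.00156) and SAG (0.00645), and SAG was also called without stress -20 (0.00574). Among uncalled ones, the log2 difference changed sign after quantile normalization for ADPRF (-0.056), LOC105032137 (0.014), LOC105050890 (-0.28) and SQUA1 (0.021), and after centring for LOC105032137 (0.035) and SQUA1 (0.020). Leaving out 1 library gave both signs for ADPRF (-0.032 to 0.18), CPRF (-0.18 to 0.031), GST (-0.38 to 0.47), LOC105032137 (-0.099 to 0.039), LOC105040877 (-0.083 to 0.69), LOC105050890 (-0.067 to 0.14), LOC105057156 (-0.23 to 0.26) and SQUA1 (-0.49 to 0.40). Read depth limits the records near 1 FPKM most.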
